A study of Caenorhabditis elegans with 2 samples.

Results

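Cuticle collagen genes were examined in a chromatin immunoprecipitation and sequencing (ChIP-seq) experiment on LIN-13, a nuclear protein with many zinc fingers, in whole Caenorhabditis elegans at the L1 larval stage. The members were the protein-coding genes of the WBcel235 annotation named with the prefix col-, 156 genes, and 15 genes named for the shape they give the worm (bli-1, bli-2, sqt-1, sqt-2, sqt-3, rol-6, dpy-2, dpy-3, dpy-5, dpy-7, dpy-8, dpy-10, dpy-13, dpy-17 and lon-3). This gave 171 of 19973 protein-coding genes. The data came from 1 group with 2 biological replicates of mixed-sex larvae of strain OP49, whose genotype is unc119(ed3) with the integrated transgene wgIs49, which carries lin-13 fused to TY1, EGFP and FLAG tags together with unc119. The antibody is labelled lin-13, and the sample notes name the target as the EGFP fusion. The tagged copy is a transgene in 1 strain, and whole larvae mix the hypodermis, where these collagens are made, with every other tissue. There is no second condition, so each statement below compares genes or positions within the same pair of replicates, and no test between samples was possible.

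The nematode cuticle is an extracellular coat built mostly of small collagens that the hypodermis secretes anew at each molt. Cuticle collagens are short proteins with interrupted runs of the triplet Gly-X-Y, in which glycine comes at each first position. Different collagens are made in successive waves within a molting cycle and at different stages, so most of these genes are silent for much of the animal's life and very active for a short time. LIN-13 belongs to the synMuv B group of chromatin regulators, whose loss can let somatic cells take up germline gene expression.

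The members matched their label by sequence. In the longest annotated coding sequence, 170 of the 171 members encoded at least 20 Gly-X-Y triplets, counted in runs of 3 or more, with a median of 51 triplets and a median length of 304 residues. The exception was col-17, with 0 triplets in the Ensembl model, whereas the RefSeq model of the same gene encoded 283 residues with 51 triplets. The rule also took in col-99, a transmembrane collagen that is not a cuticle component, with 735 residues and 132 triplets. Most members had 1 annotated 5' end, 149 against 22 with 2 or more. The triplet criterion was met by 226 proteins in the whole annotation.

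Cuticle collagen genes had few reproducible LIN-13 peaks within 500 bp, and none of those was an upstream peak nearest to the collagen's own 5' end. The reproducible set is the authors' selection of 2333 peaks by irreproducible discovery rate (IDR), a procedure meant to keep peaks ranked alike between replicates. Not every peak of the set had a partner within 100 bp in both replicates. Those at col-99, dpy-17 and myrf-2 had none in replicate 1. A reproducible summit, the highest point of a peak, lay within 500 bp of a 5' end for 5 of the 171 members, 2.92% (95% exact binomial interval 0.956 to 6.69), against 8.62% of all protein-coding genes. These were col-38, col-71, col-2, col-72 and col-85. The first 3 peaks lay upstream in an interval shared with a divergent gene and were nearer to that gene. The last pair lay inside introns of the collagens, and the col-85 summit coincided with a tRNA gene.

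The sequences at these 5 summits are shown because they are all the reproducible sites within 500 bp of a collagen 5' end, followed by col-42, the closest reproducible site outside that distance, and col-103, the strongest call near a collagen that is not in the reproducible set. Each is 201 bases of the RefSeq WBcel235 genome (ce11) centred on the summit, on the strand of the collagen gene. Capitals mark matches on either strand to words that were searched: the GATA word AGATAA, the nuclear receptor word AGGTCA, the GC box CCGCCC, the T tract TTTTTTTT, the CHR words TTCGAA and TTTGAA, and the E2F-like words TTCCCGCG, TTGGCGCC, TTCGCGCC, TTTCCCGC and TTCCCGCC. The windows are chrII:8569430-8569630 (col-38), chrII:3502733-3502933 (col-71), chrIV:10085792-10085992 (col-2), chrII:3523646-3523846 (col-72), chrII:12494676-12494876 (col-85), chrV:18637673-18637873 (col-42) and chrIV:763759-763959 (col-103), with only col-42 on the plus strand.
col-38: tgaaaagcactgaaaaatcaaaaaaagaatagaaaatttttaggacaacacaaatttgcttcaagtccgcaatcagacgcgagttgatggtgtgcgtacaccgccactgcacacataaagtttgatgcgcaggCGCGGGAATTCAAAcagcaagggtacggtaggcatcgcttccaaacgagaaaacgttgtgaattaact
col-71: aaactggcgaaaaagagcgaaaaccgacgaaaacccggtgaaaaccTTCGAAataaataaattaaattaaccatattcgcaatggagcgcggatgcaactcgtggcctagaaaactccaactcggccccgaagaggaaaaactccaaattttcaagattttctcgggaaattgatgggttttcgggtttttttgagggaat
col-2: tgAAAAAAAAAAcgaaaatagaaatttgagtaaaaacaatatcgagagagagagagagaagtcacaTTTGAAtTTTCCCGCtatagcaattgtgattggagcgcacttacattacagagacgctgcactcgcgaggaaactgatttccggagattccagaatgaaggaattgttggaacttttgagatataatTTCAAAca
col-72: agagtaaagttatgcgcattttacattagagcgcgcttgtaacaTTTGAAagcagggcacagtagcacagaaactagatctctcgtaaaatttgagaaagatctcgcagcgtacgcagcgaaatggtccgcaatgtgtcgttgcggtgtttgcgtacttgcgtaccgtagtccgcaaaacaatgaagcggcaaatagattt
col-85: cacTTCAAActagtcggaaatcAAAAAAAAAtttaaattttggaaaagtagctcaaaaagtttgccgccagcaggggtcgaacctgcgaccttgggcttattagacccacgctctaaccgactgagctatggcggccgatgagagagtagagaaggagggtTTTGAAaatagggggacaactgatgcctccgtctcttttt
col-42: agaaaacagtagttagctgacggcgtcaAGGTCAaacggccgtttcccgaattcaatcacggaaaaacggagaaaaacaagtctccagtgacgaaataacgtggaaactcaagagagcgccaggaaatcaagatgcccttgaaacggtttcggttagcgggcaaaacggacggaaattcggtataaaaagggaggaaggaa
col-103: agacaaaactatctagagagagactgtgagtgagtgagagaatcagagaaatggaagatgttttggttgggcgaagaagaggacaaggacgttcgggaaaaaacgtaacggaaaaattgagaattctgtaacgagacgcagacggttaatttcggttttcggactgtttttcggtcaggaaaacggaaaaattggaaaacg

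All 5 windows of the reproducible sites near a collagen held a CHR word, against 45.2% of the 2333 reproducible windows. An E2F-like word was in the col-38 and col-2 windows, in 2 of 5 against 6.77% of all windows, and these are intervals shared with rpl-5 and ndc-80. In the col-38 window the E2F-like word and a CHR word abut, and in the col-2 window 1 base separates a CHR word from the E2F-like word. A T tract was in 2 of the 5 windows, col-2 and col-85, against 14.3%, and neither the GATA word nor the nuclear receptor word nor the GC box was in any of the 5. The col-42 window held the nuclear receptor word alone, and the col-103 window held none of the words.

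The strongest of the 5 was the peak between col-38 and rpl-5 (II, 8569368 to 8569691). Its signal, the authors' score per call, was 173.9, rank 311 of the 30000 pooled calls, with 86.5 in replicate 1 (rank 260) and 91.3 in replicate 2 (rank 319). The summit was 442 bp upstream of col-38 and 397 bp upstream of rpl-5, which encodes a protein of the large ribosomal subunit. The 839 bp between the 5' ends hold this 1 reproducible summit, and the deposited lists do not assign it to either gene. By the same rule, 38 of 47 rpl genes had a reproducible summit within 500 bp (80.9%), against 5 of 171 collagens. When the summit also had to be nearest to the gene's own 5' end, the count was 22 of 47 (46.8%), against 2 of 171 collagens. Both rpl counts include rpl-5 through this same peak. Which gene of the pair the peak belongs to cannot be told from these counts and was not tested.

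The peak between col-71 and Y49F6B.2 (II, 3502671 to 3502994) had a signal of 138 and rank 466, with 56.4 (rank 581) and 76.3 (rank 466) in replicates 1 and 2. It lay 263 bp upstream of col-71 and 135 bp upstream of the divergent gene, which is the nearer. The peak between col-2 and ndc-80 (IV, 10085730 to 10086053) had a signal of 111 and rank 687, with 51.9 (rank 676) and 63.3 (rank 659). Its summit was 441 bp upstream of col-2, a collagen gene known for its expression in dauer larvae, and 245 bp upstream of ndc-80, which encodes a kinetochore protein that binds microtubules. The weakest rank of these 3 shared peaks in any list was 687, that of col-2 in the pooled list.

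The intronic pair was weaker. The col-72 peak (II, 3523584 to 3523907) had a signal of 94.0 and rank 911, with 44.4 (rank 887) and 51.1 (rank 949) in the replicates, and its summit was 434 bp downstream of a col-72 5' end. W09G10.9, a gene on the opposite strand, lies within the same locus, and its 5' end was 1946 bp from the summit. The col-85 peak (II, 12494614 to 12494937) had a signal of 84.7 and rank 1063, with 33.9 (rank 1386) and 52.7 (rank 913), 319 bp downstream of the col-85 5' end and inside a tRNA gene. Of all 2333 reproducible summits, 8.53% lay within 250 bp of a tRNA, snoRNA or snRNA gene. A second reproducible summit in col-72 (signal 63.9, rank 1604) and one in col-99 (64.2, rank 1590) also fell in introns at tRNA genes. Thus 3 of the 4 reproducible summits inside collagen gene bodies coincided with a tRNA gene. The 8.53% follows a wider rule over all summits, and no share was taken over the bodies of all genes. The col-99 call had no partner within 100 bp in replicate 1 and a signal of 45.4 in replicate 2.

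**Figure D1:**
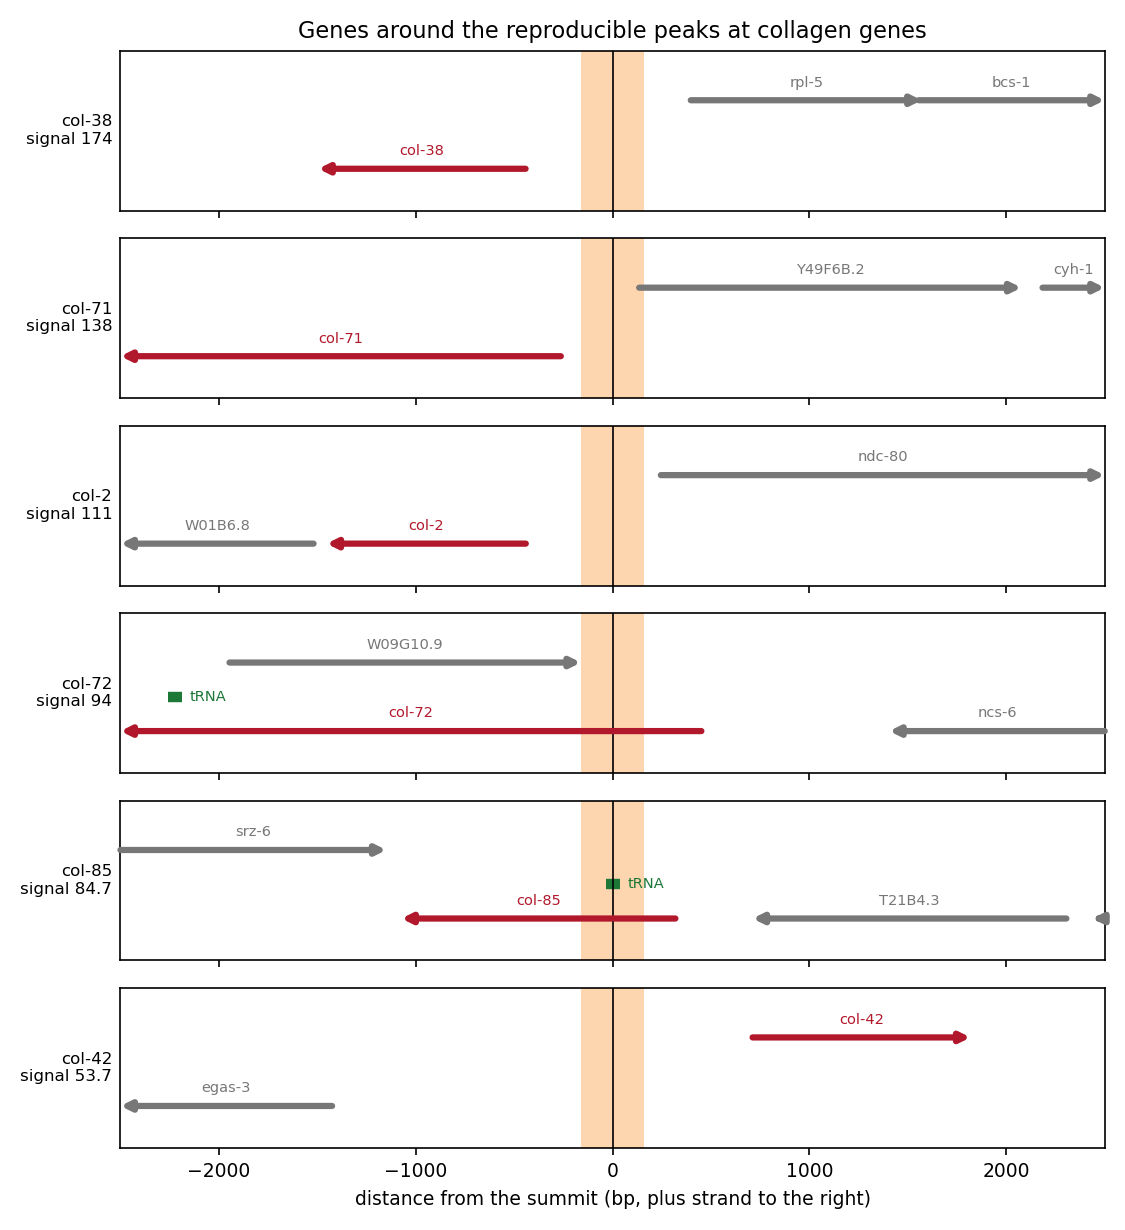
Genes around 6 reproducible summits at collagen genes, drawn as arrows against distance from the summit in bp (plus strand to the right, upper arrows on the plus strand). Red arrows are collagen genes, grey arrows other protein-coding genes, green marks tRNA genes and the orange band the called peak: the col-38, col-71 and col-2 peaks lie between divergent genes, nearer to the grey gene, and the col-72 and col-85 peaks lie within the collagen gene.

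No member had a reproducible summit within 250 bp of a 5' end (0 of 171, upper limit 2.13%), against 5.65% of all genes. Among nuclear hormone receptor genes the count was 3 of 269 (1.12%), and among large ribosomal subunit genes 9 of 47 (19.1%). The median position of summits within 500 bp was 263 bp upstream for the 5 collagens. It was 265 bp upstream for receptor genes, 297 bp for large ribosomal subunit genes and 180 bp for all genes. Upstream summits within 500 bp were found for 3 members (1.75%) against 8.04% of all genes. When the summit also had to be nearest to the gene's own 5' end, the count was 0 of 171, which allows a share of up to 2.13%, against 6.07%. On either side with the same condition the count was 2 (1.17%), col-72 and col-85, against 6.59%. Among collagens the member closest outside 500 bp was col-42, and the member farthest inside it was col-38.

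Each reproducible upstream summit within 500 bp of a member lay at a member with a divergent 5' end. A divergent protein-coding 5' end lay within 1000 bp upstream of 25 of the 171 members, and for 2 of these, col-3 and col-117, the partner was another collagen. Of the 25, 3 had a reproducible upstream summit within 500 bp (12.0%, interval 2.55 to 31.2), against 22.9% of all 3729 genes with a divergent 5' end. Of the other 146 members, 0 had one (upper limit 2.49%), against 4.63% of the 16244 genes without a divergent 5' end. The members with a divergent 5' end and no such summit include dpy-13, whose 5' end is 249 bp from that of zipt-2.2, and col-7, an adult collagen gene, 109 bp from C15A11.4.

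Beyond 500 bp, 5 further members had a reproducible summit within 2000 bp, which made 10 of 171 (5.85%) against 14.6% of all genes. Only col-42 had one upstream with no other gene nearer and no small RNA gene beside it, at -711 bp, where a minus sign means upstream (V, 18637611 to 18637934). That peak was near the end of the set, with a signal of 53.7 and rank 2027, and 26.01 and 28.2 in the replicates. At 3 of the other 4 the summit lay on or beside another annotated feature. At sqt-2, a body shape collagen, the summit 1342 bp downstream of its 5' end was 1 bp from that of enee-1, in an exon of that gene (signal 191, rank 246, replicates 76.7 and 112). At col-94 it was 1754 bp upstream, in an intron of dhc-4 and 52 bp from a snRNA gene (signal 226.8, rank 171, replicates 95.4 and 121). At col-181 it was 1049 bp downstream of the 5' end, inside a tRNA gene (57.0, rank 1883, replicates 19.4 and 40.7), and at dpy-17 it was 1638 bp downstream and at -733 bp from sax-2 (53.8, rank 2024), with no partner in replicate 1 and 47.6 in replicate 2.

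At larger distances the values for collagens and for all genes were close. The median distance from a member's 5' end to the nearest reproducible summit was 17134 bp (quartiles 7576 and 37652 bp), against 16723 bp (5433 and 38730 bp) for all genes. Within 10000 bp, 52 members (30.4%) had a reproducible summit against 36.5% of all genes. The curve for collagens lies below that for all genes at 10000 bp and less.

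**Figure D2:**
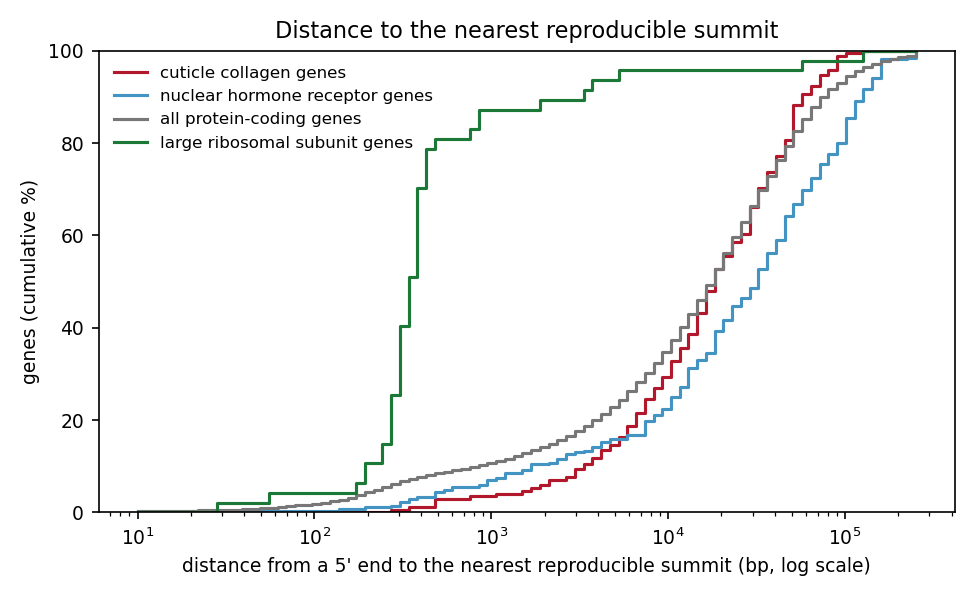
Cumulative share of genes (%) against the distance in bp, on a log scale, from a 5' end to the nearest reproducible summit, for cuticle collagen genes, nuclear hormone receptor genes, large ribosomal subunit genes and all protein-coding genes. The collagen curve stays at 0 up to 250 bp and comes close to that of all genes near its median of 17134 bp.

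The unthresholded lists, which hold 30000 calls each and include background, gave the same order. A pooled call lay within 500 bp of a 5' end for 35 members (20.5%, interval 14.7 to 27.3), against 39.2% of all genes. In replicate 1 the count was 36 (21.1%) against 38.6%, and in replicate 2 it was 48 (28.1%) against 39.3%. Both replicate lists had a call within 500 bp for 19 members (11.1%) against 25.2%. Of the 35 members with a pooled call, 13 had a partner within 100 bp of its summit in both replicates (37.1%, against 43.0% of the 7823 genes with a pooled call) and 2 had one in neither. With a q-value under 0.05 the pooled list left 6 members (3.51%) against 11.2% of all genes: the 5 above and col-103.

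**Figure D3:**
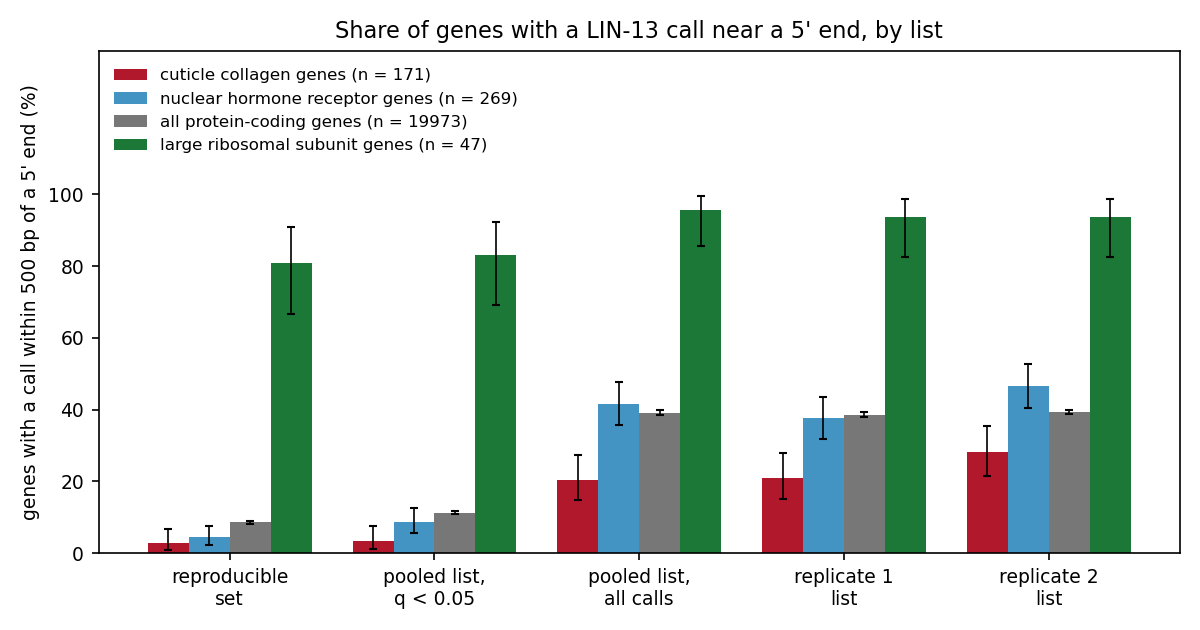
Share of genes (%) with a call whose summit lies within 500 bp of a 5' end, in the reproducible set, the pooled list with and without a q-value limit, and the list of each replicate, with 95% exact binomial intervals that cover counting error only. Collagen genes (n = 171) are below all protein-coding genes in each list, and large ribosomal subunit genes (n = 47) are far above them.

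The calls outside the reproducible set are weaker by construction, since the set holds the 2333 pooled calls of highest signal. The median signal of all 30000 pooled calls was 18.6. For the 30 members with a pooled call but no reproducible summit, the pooled signal ran from 14.4 to 38.9 with a median of 20.01, and the rank from 3147 to 27448. The highest was col-103, 38.9 with a q-value of 0.0297 and its summit 181 bp upstream, with no other protein-coding 5' end nearer. Both replicates had a call close to that summit, at -183 bp in replicate 1 (24.1, rank 2382) and at -187 bp in replicate 2. The strongest replicate 2 call within 500 bp was another one, 255 bp downstream (15.3, rank 5395). The next q-value was 0.284, at col-98 (27.3, 163 bp upstream), where replicate 1 had 15.97 and replicate 2 had no call within 500 bp. At col-147 (25.9) and col-132 (22.9) it was replicate 1 that had none, and replicate 2 had 16.8 and 10.4.

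Pairs of neighbouring collagens shared some of these weak calls. One pooled call of 25.7 stood for both col-159 and col-160, at -402 and -390 bp, with strongest signals of 14.6 and 13.2 in the replicates, the second of these at -233 bp from col-159. The call of 22.3 in the 588 bp between the divergent collagens col-117 and col-3 served both, with 21.0 (rank 3273) in replicate 2 and none within 500 bp in replicate 1. The remaining 136 members had no pooled call within 500 bp, and neither had 12150 of all 19973 protein-coding genes. Of the 136 members, 31 had a call in 1 replicate list, 1 in both, and 104 had no call in any list. These finer counts were not taken over all genes, so they are not shown to be particular to collagens.

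**Figure D4:**
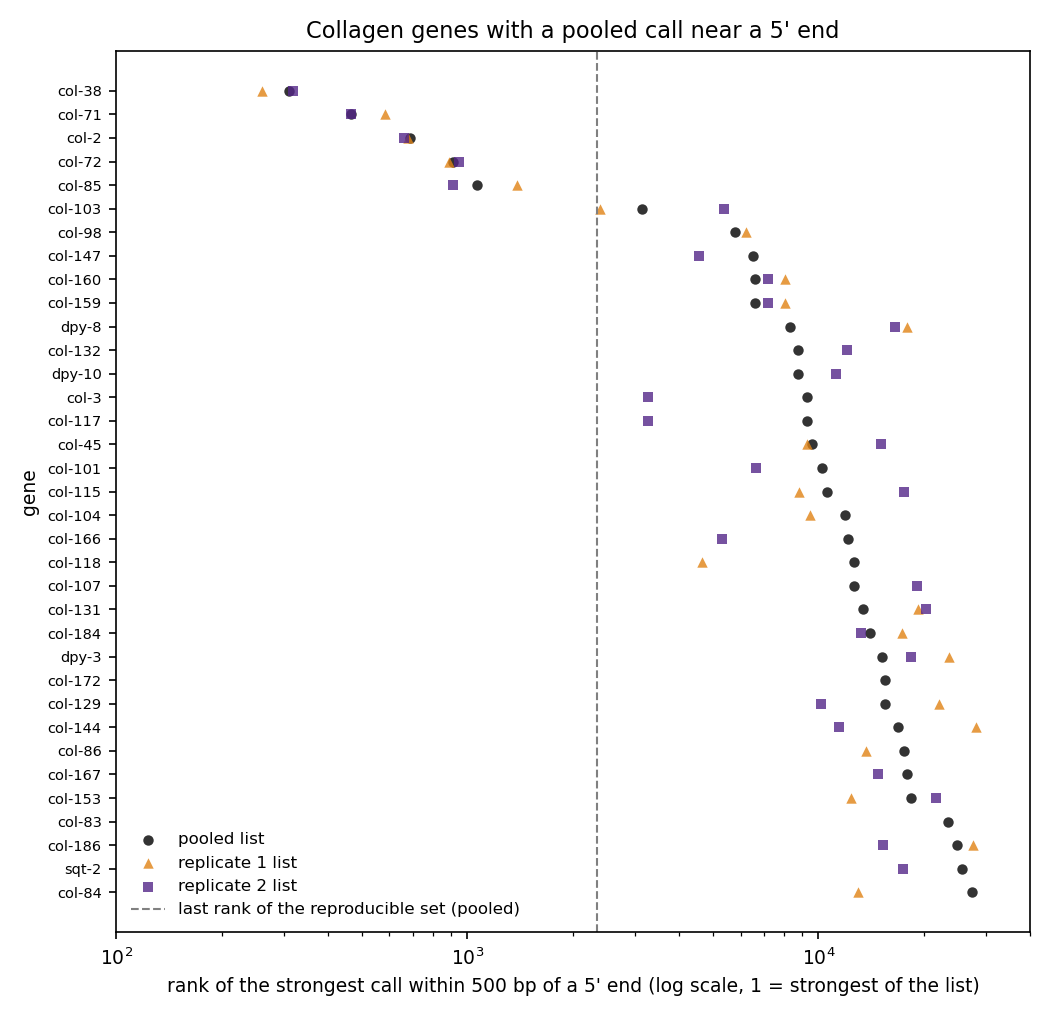
Rank of the strongest call within 500 bp of a 5' end (log scale, 1 is the strongest call of a list) for the 35 collagen genes with a pooled call, in the pooled list and each replicate list. The dashed line is rank 2333, the last of the reproducible set in the pooled list: 5 genes lie left of it with close ranks in all 3 lists, and the others are scattered to its right with many replicate points missing.

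None of the 15 members not named col- had a reproducible summit within 500 bp, against 8.62% of all genes. The furrow collagens DPY-2, DPY-3, DPY-7, DPY-8 and DPY-10 form the circumferential furrows of the cuticle, and 0 of their 5 genes had one, while 3 had a pooled call (60%, interval 14.7 to 94.7, against 39.2% of all genes). That pooled share is above that of all genes, in a list of 5. These were dpy-8 (23.3 at -451 bp, with ranks 17867 and 16506 in the replicates), dpy-10 (22.9 at -357 bp, with 10.7 in replicate 2 and none in replicate 1) and dpy-3 (18.5 at -100 bp, with 9.79 and 8.60). Their pooled ranks were 8325, 8754 and 15158, where the reproducible set ends at rank 2333. For dpy-7 the nearest pooled call was 12192 bp away, and for dpy-2 it was 1475 bp upstream.

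Among the other body shape genes, 0 of 8 had a reproducible summit within 500 bp and 1 had a pooled call (12.5%, against 39.2% of all genes). That was sqt-2 (14.8, rank 25583, 402 bp upstream, with 8.81 in replicate 2 and none in replicate 1). For sqt-1 and rol-6, collagen genes whose mutants roll, the nearest pooled calls were at 2907 and -2398 bp. For lon-3 and dpy-13 they were at 2734 and -3162 bp, for dpy-5 at 1426 bp, for sqt-3 at -2197 bp and for dpy-17 at 1638 bp. At these genes, replicate calls within 500 bp were in 1 replicate list only. For sqt-1 the call was in replicate 1 at -210 bp (11.8, rank 14854). For dpy-17 the strongest within 500 bp was in replicate 2 at 343 bp (7.65, rank 23171). The strut collagens bli-1 and bli-2, which join the cortical and basal layers of the adult cuticle, had 0 of 2, with nearest pooled calls at -2612 and -2659 bp. For bli-2 there was a call in replicate 2 alone, at 277 bp (6.81, rank 28765). The adult collagen genes col-19 and col-7 had their nearest pooled calls at 5061 and -7672 bp. The name col-6 did not match a gene in the annotation.

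The members with a peak came from 2 chromosomes. Of the 31 members on chromosome II, 4 had a reproducible summit within 500 bp (12.9%, interval 3.63 to 29.8) against 8.44% of all genes there, and of the 42 on IV, 1 had one (2.38%) against 8.50%. The 22 members on I, 13 on III, 33 on V and 30 on X had 0, against 12.7%, 13.7%, 5.55% and 5.35% of all genes on those chromosomes. A pooled call lay near 1 of 22 members on I against 45.7% of all genes there, 9 of 31 on II (29.0% against 36.6%) and 1 of 13 on III (7.69% against 48.7%). It lay near 12 of 42 on IV (28.6% against 40.1%), 5 of 33 on V (15.2% against 32.4%) and 7 of 30 on X (23.3% against 37.6%). Many collagens are neighbours: 48 members had another member as the adjacent protein-coding gene. Of these, 0 had a reproducible summit within 500 bp (upper limit 7.40%). The count was 5 of the 123 without such a neighbour (4.07%), and the share of all genes was 8.62%. A pooled call lay near 8 of the 48 and 27 of the 123, against 39.2% of all genes. No test of these differences was made.

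Set beside nuclear hormone receptor genes, another large family, collagens had a lower share in each list. Of the 269 receptor genes 12 had a reproducible summit within 500 bp (4.46%, interval 2.33 to 7.66), and 112 had a pooled call (41.6%, 35.7 to 47.8), close to the 39.2% of all genes. The interval for collagens overlapped that of the receptors in the reproducible set and lay below it for pooled calls (14.7 to 27.3). The median distance to a reproducible summit was longer for receptor genes, 29559 bp, than for collagens. Where collagens had a pooled call, its median signal of 21.2 was close to the 21.9 of receptor genes and the 22.2 of all genes with a call.

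Peaks were also counted at genes that make, process or control cuticle collagen, to be read beside the 8.62% of all genes. Of 5 further cuticle collagen genes outside the rule (bli-6, dpy-4, dpy-9, dpy-14 and rol-8), 1 had a reproducible summit within 500 bp (20%). That was bli-6 (IV, 6376560 to 6376883), with a signal of 119.5 and 50.7 and 67.6 in the replicates, 343 bp upstream of the gene and 199 bp upstream of hrpf-2, which is again the nearer gene. None of the 3 basement membrane collagen genes cle-1, emb-9 and let-2 had one.

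Of 12 genes for collagen processing and cross-linking, 1 had a reproducible summit within 500 bp (8.33%), pdi-2, which encodes a protein disulphide isomerase that is also a subunit of prolyl 4-hydroxylase. Its peak (X, 4523976 to 4524299) had a signal of 123 and 70.6 and 50.8 in the replicates, and the summit was 17 bp upstream of the gene. The prolyl 4-hydroxylase genes dpy-18, phy-2, phy-3 and phy-4, the protease genes bli-4 and dpy-31 and the oxidase gene bli-3 had none. Of 15 other cuticle and molting matrix genes, among them noah-1, noah-2, fbn-1 and mlt-10, 0 had one (upper limit 21.8%).

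Of 12 regulators of the hypodermis and of molting, 2 had a reproducible summit within 500 bp (16.7%, interval 2.09 to 48.4), myrf-1 and myrf-2, which encode membrane-bound transcription factors of the MYRF family. The myrf-1 summit was 248 bp upstream (II, 10502627 to 10502950; signal 81.2), with 20.7 in replicate 1 and 59.8 in replicate 2. The myrf-2 summit was 197 bp upstream of a 5' end and inside an intron of the gene (X, 10188505 to 10188828; signal 71.1), with no partner within 100 bp in replicate 1 and 57.1 in replicate 2. At myrf-1 the rank was 3243 in replicate 1 and 739 in replicate 2, and at myrf-2 the strongest replicate 1 call within 500 bp ranked 3809 and lay 329 bp upstream, against rank 801 in replicate 2. The nuclear receptor gene nhr-23, which drives molting cycles, had a reproducible summit 763 bp downstream of a 5' end, in an intron (signal 49.5, with 22.7 and 25.3). Neither nhr-25, elt-1, elt-3, blmp-1 nor lin-29 had one within 500 bp. Outside the reproducible set, nhr-25 had a pooled call 156 bp upstream (43.9, rank 2653, q-value 0.00773). Its strongest replicate calls within 500 bp were 17.6 and 27.4. With a q-value under 0.05, 3 of the 12 regulators had a pooled call (25%), against 11.2% of all genes. The peaks of pdi-2, myrf-1, myrf-2 and nhr-23 were nearest to these genes themselves, as were the col-72 and col-85 peaks among the collagens.

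The same words were counted in the 250 bp upstream of the members and of all genes, members included, with no test. The GATA word was in 46 of 171 (26.9%) against 18.7% of all 19973 promoters, the nuclear receptor word in 22 (12.9%) against 7.07%, and the GC box in 26 (15.2%) against 6.92%. The CHR words were in 84 (49.1%) against 64.3%, the T tract in 35 (20.5%) against 31.0%, and an E2F-like word in 5 (2.92%) against 2.91%. The median GC content was 36.8% in member promoters and 33.2% in all promoters, and the part of base composition in these shares was not tested. In the 201 bp windows of all reproducible summits the GATA word was in 8.57% and the nuclear receptor word in 5.87%, in windows that are shorter than the promoters. A word match is a match of letters and no measure of binding.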

How the data were processed

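The sources were peak lists in the ce11 build, the assembly WBcel235, for 2 biological replicates of 1 group. Per the labels and the deposited file descriptions, the authors called peaks and background on each replicate and on pooled alignments against a control alignment, and derived an optimal IDR set from these lists. The sources used here do not give the aligner, peak caller, IDR threshold or read depth, and control samples were not analysed here. The deposited signal score per call is the authors' own, on a scale that is not stated, and ranks were taken within each list. The reproducible set holds the 2333 pooled calls of highest signal. The deposited −log10 q-value has a ceiling shared by 2026 pooled calls and was used only for a limit of 0.05.

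Genes and 5' ends of protein-coding transcripts (29314) came from Ensembl release 115, with Python 3.11.15, pandas 2.3.3, numpy 2.4.6 and scipy 1.17.1. Many transcripts are trans-spliced, and the first transcribed base can then be upstream of the annotated 5' end. For each gene the nearest summit and the strongest call within 500 bp of any 5' end were taken, so that a replicate's call need not be the pooled one unless a partner within 100 bp is named. At reproducible peaks the replicate values are partners within 100 bp. Negative distances are upstream. Sequence and coding translations came from the RefSeq copy of WBcel235, since no protein table was used here. Intervals are 95% exact binomial intervals and cover counting error only, with genes treated as independent. No list test was made. The distance code was tested on simulated summits.

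The members, gene lists and words were chosen with earlier results of these data known. Genes named were members with a reproducible summit within 500 bp or within 2000 bp, the 10 strongest weak calls, the 15 members not named col-, col-2, col-6, col-7, col-19, col-99, partners of shared promoters, and listed genes with a reproducible summit. The col-17 exception, nhr-23, hrpf-2, dpy-13 and col-7 partners, examples without a peak and the col-72 and col-99 tRNA sites were named after their values were seen.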

Additional observations from a re-analysis of the deposited data

How the results depend on the processing

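The 5 members with a reproducible summit within 500 bp were the same genes with the 5'-most end of each gene, with the middle of each peak, with the stronger part of the set by signal and with the 2333 top calls of either replicate alone. With replicate 1 left out, 48 members had any call in the list of replicate 2 (39.3% of all genes). The median distance was then 17106 bp (16855 bp for all genes). With replicate 2 left out, 36 members had any call in the list of replicate 1 (38.6% of all genes). The median distance was then 19148 bp (17265 bp for all genes). The 5'-most end gave 34 members with a pooled call (36.1% of all genes) and the middle of the peak 35 (39.2%). For reproducible summits, all genes had 8.21% with the 5'-most end and 8.62% with the middle of the peak. They had 8.34% with the top calls of replicate 1 and 8.43% with those of replicate 2. In the stronger part all genes had 4.94%, nearer to the members' 2.92% than the 8.62% of the whole set. A window of 250 bp left 0 members and 17 with a pooled call (5.65% and 25.5% of all genes). A window of 1000 bp gave 6 and 54 (10.9% and 53.0%). Giving each summit to the nearest 5' end only left 2, col-72 and col-85, and 29 with a pooled call (6.59% and 35.8% of all genes). The 10000 top pooled calls left 16 members (20.2% of all genes). The median distance was 36067 bp for the stronger part (33411 bp for all genes). Without calls within 250 bp of a tRNA, snoRNA or snRNA gene, an alternative chosen after seeing the data, 4 members had a reproducible summit (8.35% of all genes) and the median distance was 21616 bp (18286 bp for all genes). Partner distances of 50 and 200 bp gave 11 and 15 of the 35 members with a partner in both replicates (32.8% and 52.4% of all genes with a pooled call). The cause of these shifts was not tested, apart from windows and call numbers that change the count by construction. No paired analysis was possible because there is 1 group. The read depth behind the calls is unknown, so a gene without a call may lie below what these libraries could show.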
